A study of Mus musculus with 31 samples.

Results

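Proliferation and cell cycle genes were followed in bulk RNA-seq of the mouse masseter muscle (MM), a jaw-closing muscle, after injection of complete Freund's adjuvant (CFA), an oil emulsion of killed mycobacteria that provokes inflammation, or of collagenase type 2 (Col), a bacterial enzyme preparation that digests collagen and damages the tissue. The set was a list of 50 genes fixed by name for their known function. All 50 were among the 22609 genes of the count tables and had at least 10 reads in at least 3 of the 31 libraries, as did 15526 genes in all. The mice were male C57BL/6J without a genetic change, adult (2 to 4 months old per the study's methods), and the left MM was injected and dissected with its tendons left out as far as possible. CFA mixed with PBS was followed at 1d and 5d (n = 3 each) beside CFA vehicle mice (n = 3), where vehicle was PBS. Col at 0.2U was given to groups labelled 1C and RPC (n = 4 each), labels that do not state a day. Col at 10U was followed in groups labelled 2d (n = 4), 6d (n = 3) and 12d (n = 4), for which the study's methods give 1, 6 and 14 days. Controls titled as such and labelled as vehicle (n = 3), called Col vehicle here, served all Col groups, so comparisons with them share the same 3 mice. The comparisons asked how each injection and time changed the transcription of this program relative to vehicle, and how the 10U time points differed from each other.

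A cell that divides first licenses its replication origins with the MCM2-7 helicase, copies its DNA in S phase with the help of the sliding clamp PCNA and of enzymes that make nucleotides, and then separates its chromosomes in mitosis under the control of cyclin B-CDK1, PLK1, the Aurora kinases and the anaphase-promoting complex. E2F factors drive many of the S phase genes, while the DREAM, B-MYB and FOXM1 complexes act on CCAAT and CHR elements in the promoters of many mitotic genes. Adult muscle fibres have left the cell cycle for good, so that dividing cells in muscle are satellite cells and myoblasts, immune cells, fibroblasts or endothelial cells.

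Promoter sequences of S phase and mitotic members are shown because the letters ahead of their start sites differ in frequency. Windows from 250 bases before to 50 bases after the start were taken from RefSeq (mouse build GRCm38.p6), and 43 of the 50 members had one, 3 of them with 2 windows. Ccna2, Ccne2, Aurkb, Kif20a, Tpx2, Mcm4 and Foxm1 were named only. Printed are 2 mitotic members, Plk1 (chr7:122159185-122159484, plus strand) and Cdc20 (chr4:118437294-118437593, minus strand), and 2 S phase members, Mcm5 (chr8:75109259-75109558, plus strand) and Pcna (chr2:132253131-132253430, minus strand), each read 5′ to 3′ on the strand of the gene. In mm9, the build of the counts, these genes span chr7:129302951-129313389 (Plk1), chr4:118105506-118109957 (Cdc20), chr8:77633427-77652338 (Mcm5) and chr2:132074898-132079050 (Pcna). Capitals mark CCAAT, the CHR words TTTGAA and TTCGAA, and the E2F words TTCCCGC or TTGGCGC or TTCGCGC, searched on both strands.
Plk1: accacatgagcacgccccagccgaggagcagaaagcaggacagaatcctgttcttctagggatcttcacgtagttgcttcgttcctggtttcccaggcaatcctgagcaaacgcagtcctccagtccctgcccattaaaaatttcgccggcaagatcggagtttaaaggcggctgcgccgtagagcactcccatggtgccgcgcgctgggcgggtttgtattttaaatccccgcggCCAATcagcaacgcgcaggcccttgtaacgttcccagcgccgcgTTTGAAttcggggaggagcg
Cdc20: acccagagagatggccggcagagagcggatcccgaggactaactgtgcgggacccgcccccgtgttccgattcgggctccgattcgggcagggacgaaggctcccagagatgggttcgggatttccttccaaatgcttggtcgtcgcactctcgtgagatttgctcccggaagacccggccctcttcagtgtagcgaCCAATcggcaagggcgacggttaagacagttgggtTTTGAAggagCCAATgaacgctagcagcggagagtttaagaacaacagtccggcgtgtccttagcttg
Mcm5: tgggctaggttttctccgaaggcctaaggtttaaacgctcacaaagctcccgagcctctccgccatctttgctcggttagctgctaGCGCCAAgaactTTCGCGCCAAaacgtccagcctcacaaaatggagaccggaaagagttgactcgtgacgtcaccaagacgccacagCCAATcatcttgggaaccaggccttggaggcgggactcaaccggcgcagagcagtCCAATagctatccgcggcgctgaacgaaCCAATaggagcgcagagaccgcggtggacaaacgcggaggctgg
Pcna: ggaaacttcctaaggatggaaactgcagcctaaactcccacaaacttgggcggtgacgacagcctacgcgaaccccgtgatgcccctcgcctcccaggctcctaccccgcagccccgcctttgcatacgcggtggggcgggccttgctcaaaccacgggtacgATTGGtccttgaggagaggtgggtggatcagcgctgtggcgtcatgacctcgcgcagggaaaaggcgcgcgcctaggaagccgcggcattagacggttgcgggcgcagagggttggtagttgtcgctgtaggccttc
The Plk1 window held CCAAT at 14 to 10 bases before the start and TTTGAA at 30 to 35 bases after it. The Cdc20 window held TTTGAA between a pair of CCAAT boxes. Mcm5 had 3 CCAAT boxes and 3 E2F words, the last 2 of which overlapped, and no CHR word. Pcna had 1 CCAAT box, on the opposite strand. A CHR word stood in a window of 19 of 24 members of the mitotic roles (79.2%, cyclins left out since they act in several phases), of 2 of 4 cyclins, of 2 of 10 S phase members and of 5854 of all 27025 genes with a window (21.7%). An E2F word stood in 1 of 24 mitotic members (4.17%), in 5 of 10 S phase members (50.0%; 4 of 5 MCM genes and 1 of 5 genes of DNA synthesis) and in 9.2% of all genes. CCAAT was in 74.4% of the members and in 41.1% of all genes. These are matches of letters, with no measurement of binding.

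The libraries held between 14843778 and 29076671 reads assigned to genes (median 20834472), which sets the precision of low genes such as Ccnb1, at 0 to 3.64 CPM. Levels are given as CPM, read counts scaled to library size with the trimmed mean of M values (TMM) over all 31 libraries. Skeletal muscle fibre markers had a mean log2 CPM of 11.83 to 14.38 in every library. Markers of bone marrow cells split the libraries of a group. The summed level of 7 granulocyte precursor genes was 934 CPM in Col vehicle mouse 3 and 8.81 in mouse 2, and 567 CPM in CFA vehicle mouse 3 against 2.09 in the lowest CFA vehicle mouse. Elane, a granulocyte precursor protease, reached 32.1 CPM in Col vehicle and was between 0 and 0.0835 at 6d post-Col (10U). Marrow precursors divide rapidly, so these levels are set beside each result they move with. The share of reads ambiguous between genes was 0.675% to 0.875% in the 11 libraries of 10U Col and 0.147% to 0.317% in the other 20, and any part of this in the comparisons of 10U Col with vehicle was not tested. Exons of 11 members overlap a gene on the opposite strand, the most for Kif20a (32.3% of its exon bases). For 12 members at least 5% of the 50-base windows recur elsewhere in the genome, and their levels are therefore less certain. These are Pcna (31%), Ccnb1 (30.8%), Uhrf1 (23.1%), Mcm7 (16.1%), Tyms (14.2%), Cdc20 (12.1%), Nuf2 (12.0%), Plk1 (9.11%), Mki67 (8.53%), Tk1 (7.04%), Rrm2 (6.14%) and Birc5 (5.39%).

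The mean log2 CPM of the 50 members, here called the member score, was lowest in CFA vehicle mouse 1 (-0.26) and highest in mouse 3 at 2d post-Col (10U) (3.96). It was 1.73, 0.31 and 3.01 in the 3 Col vehicle mice. At 2d post-Col (10U) it was 3.32, 3.67, 3.96 and 1.81, and at 6d it was 3.62, 3.71 and 2.91. At 12d it was 1.13, 0.95, 1.30 and 2.45. Thus 3 of 4 mice at 2d and 2 of 3 at 6d lay above every vehicle mouse, and 12d lay below every 6d mouse. Col vehicle mouse 3 was the highest vehicle mouse for 49 of 50 members, by a median 3.61-fold over the mean of the other vehicle mice, and CFA vehicle mouse 3 was the highest for 47 of 50, by 9.65-fold. Mouse 4 at 2d was the lowest of its group for 49 members, at a median 0.24 of the others, and mouse 4 at 12d was the highest for 46, at 2.83 times the others. The plot of scores by mouse shows the members beside 3 lists of cell type markers.

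**Figure D1:**
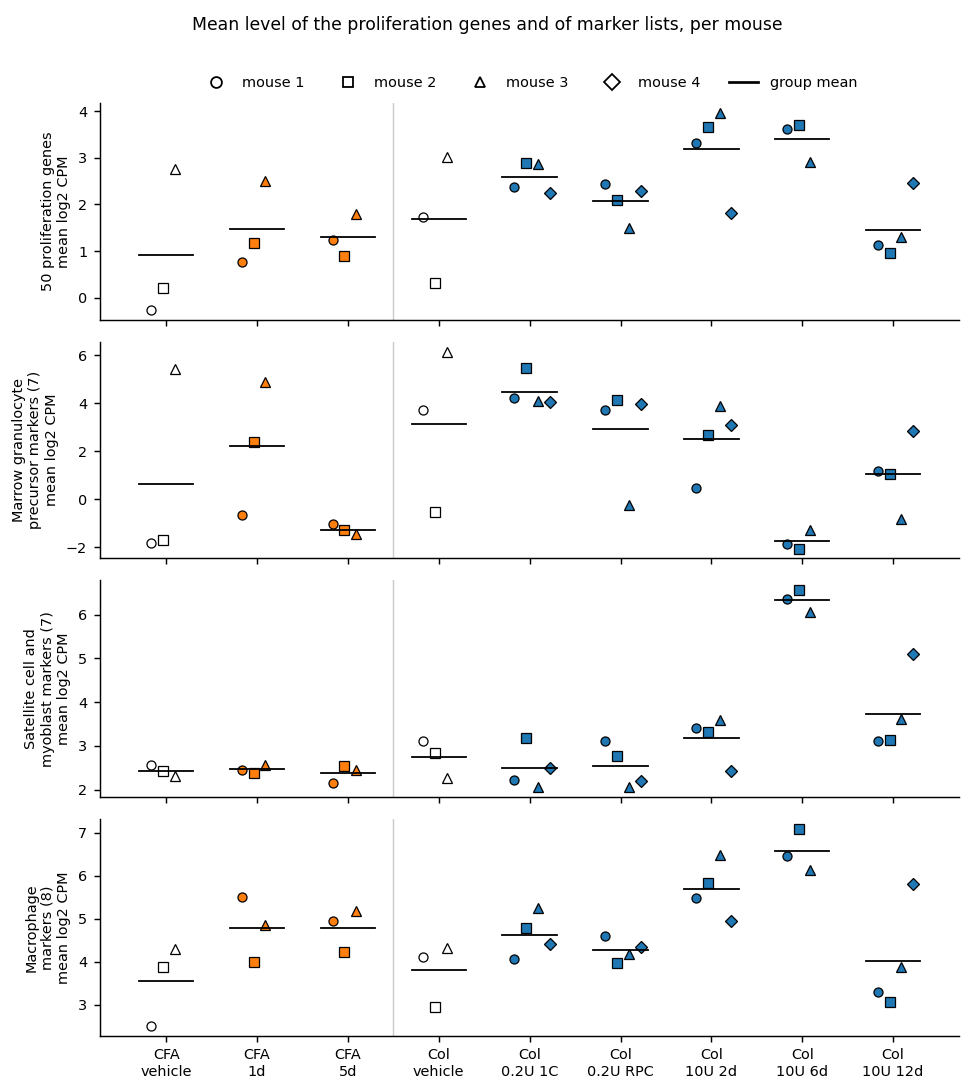
Mean log2 CPM per mouse of the 50 members and of markers of marrow granulocyte precursors (7 genes), satellite cells and myoblasts (7 genes) and macrophages (8 genes), by group; marker shape gives the mouse number and the bar the group mean. Member scores at 6d post-Col (10U) lie between 2.91 and 3.71 while marrow scores there lie below -1.29, and vehicle mice 3 have the highest member and marrow scores of their groups.

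By group mean, 27 of the 50 members were highest at 6d post-Col (10U) and 20 at 2d, among the latter all 6 MCM genes. Aurka and Rrm1 were highest in CFA vehicle and Ccne2 in Col vehicle. The lowest group mean was at 5d post-CFA for 28 members and at 12d post-Col (10U) for 13. The means of CFA vehicle rest largely on its mouse 3, the highest vehicle mouse for 47 members. By mouse, the mean log2 CPM of the members of the mitotic roles was -1.24, -0.78 and 2.17 in CFA vehicle. At 5d post-CFA it was 0.55, -0.03 and 1.07, so 5d is not the lowest state in every mouse. The map of all members shows these profiles mouse by mouse.

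**Figure D2:**
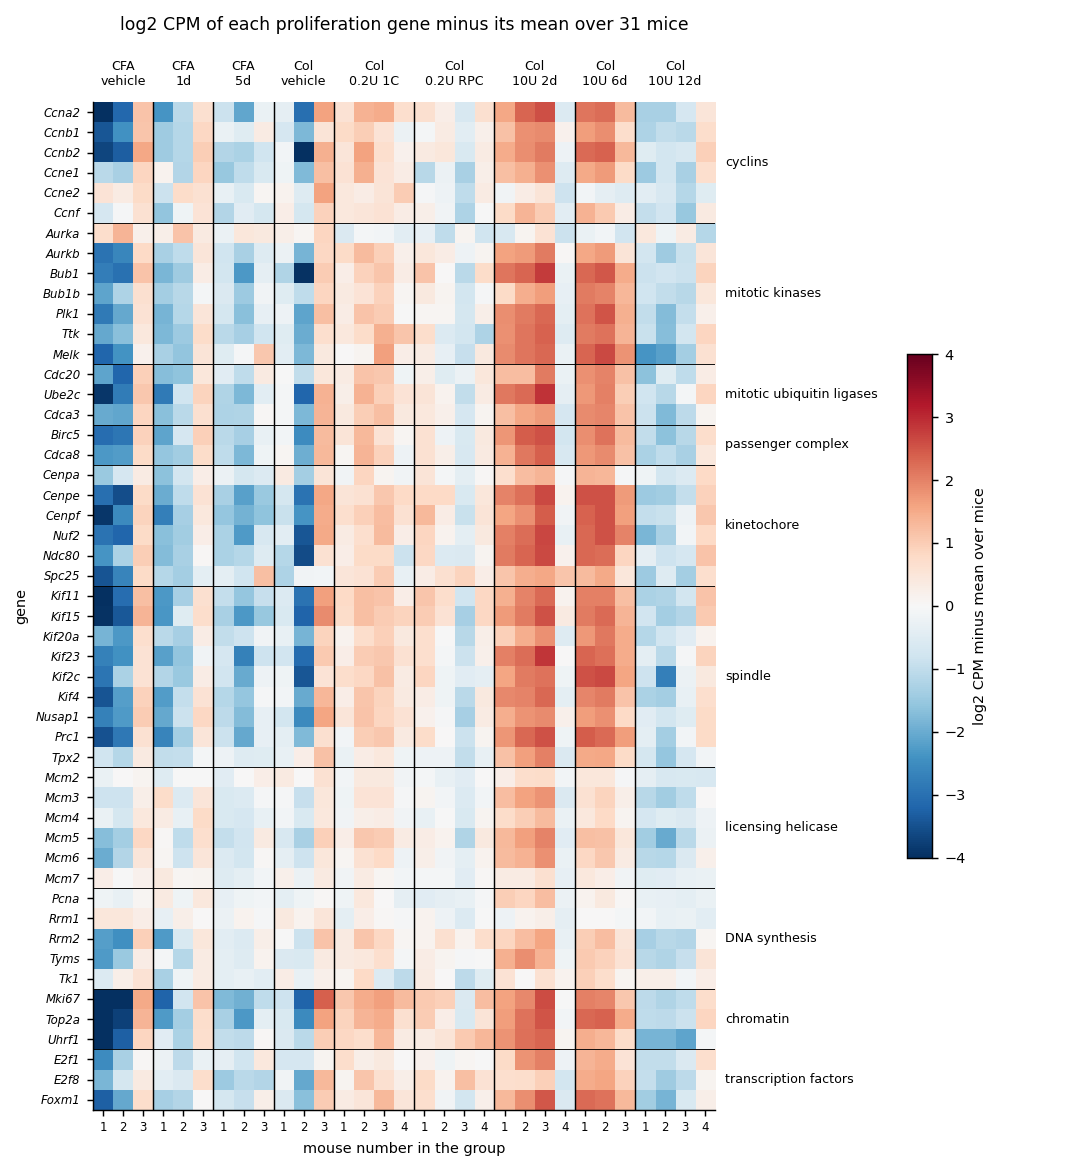
Log2 CPM of each member minus its mean over the 31 mice (colour, from -4 to 4), with members in rows ordered by role and mice in columns ordered by group. Mice 1 to 3 at 2d and all mice at 6d post-Col (10U) are high for most rows, as is mouse 3 of either vehicle group, and Aurka, Ccne2 and Rrm1 run against this profile.

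At 6d post-Col (10U) against vehicle, 46 of 50 members had a positive log2 fold change and 7 passed Padj under 0.05, all upward (Padj is the p of edgeR's quasi-likelihood method after Benjamini-Hochberg adjustment over all genes tested, and values followed by an SE are log2 fold changes). Among all genes tested, 14% were called upward, the same share as 7 of 50 members. The 7 were the kinases Melk, Ttk and Bub1b, the anaphase-promoting complex activator Cdc20, the kinetochore gene Spc25, the midzone gene Prc1 and the transcription factor E2f1, and all 7 also met the study's criteria for DEGs (fold change over 2 and RPKM over 1, met upward by 8.22% of all genes). DESeq2 called 17 members upward, the 7 among them (17.1% of all genes), and 1 downward. Of the 31 members with neither an opposite-strand overlap nor 5% of repeated windows, edgeR called 6. The members' median log2 fold change was 1.37 and that of all genes was 0.01. Groups did not overlap for 19 members upward and 2 downward, against 24.8% and 22.5% of all genes. Leaving out 6d mouse 1 or 6d mouse 2 ended all 7 calls, leaving out vehicle mouse 1 left 1, and leaving out vehicle mouse 3 gave 40.

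From 6d to 12d post-Col (10U), 42 of 50 members fell, against 13% of all genes called downward in the same test. The members' median log2 fold change was -2.03 and that of all genes was 0, and 37 members also met the fold and RPKM criteria (5.28% of all genes). Of the 31 members without overlap or repeated windows, 26 fell. At 12d all 4 mice were below all 3 mice of 6d for 41 members (18.7% of all genes). The 8 members that were not called were Ccne2, Aurka, Cenpa, Spc25, Kif11, Rrm1, Tyms and Tk1. Leaving out 6d mouse 2 ended all calls (0 members, 0.906% of all genes downward, median -1.93), and the other omissions left 7 to 46. Both groups carried the higher share of ambiguous reads, and 2 of 5 tested marrow precursor markers rose (13.4% of all genes), with a summed precursor level of 1.69 to 3.68 CPM at 6d and 7.31 to 71.3 at 12d. Macrophage markers (4 of 8) and satellite cell and myoblast markers (4 of 7) fell with the members, and their part in the result was not tested. In bulk tissue, fewer dividing cells and less RNA per cell cannot be told apart.

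At 2d post-Col (10U) against vehicle, 47 of 50 members had a positive log2 fold change with a median of 1.39, but none passed the edgeR test (1.14% of all genes were called upward). At an unadjusted p under 0.05, 14 members were higher, against 17.5% of all genes, and DESeq2 called 11, against 11.7%. Mouse 4 at 2d was apart from the other 3, and without it 13 members were called (17.8% of all genes) with a median of 1.68. It was the lowest of its group for 49 of 50 members, so its omission raises most fold changes by construction. Among salivary gland markers this mouse had the highest Amy1 (51500 CPM), Aqp5 (84.1) and Bhlha15 (246) of its group. It did not have the highest Prol1 or Dcpp1, and the part of this tissue was not tested. At 12d against vehicle, 43 of 50 members had a negative log2 fold change with a median of -0.45, and none was called (0.762% of all genes upward, 0.466% downward). Here 4 members were lower at an unadjusted p under 0.05 (7.77% of all genes), and DESeq2 called 2 lower, Mcm2 and Rrm1 (2.7% of all genes).

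**Figure D3:**
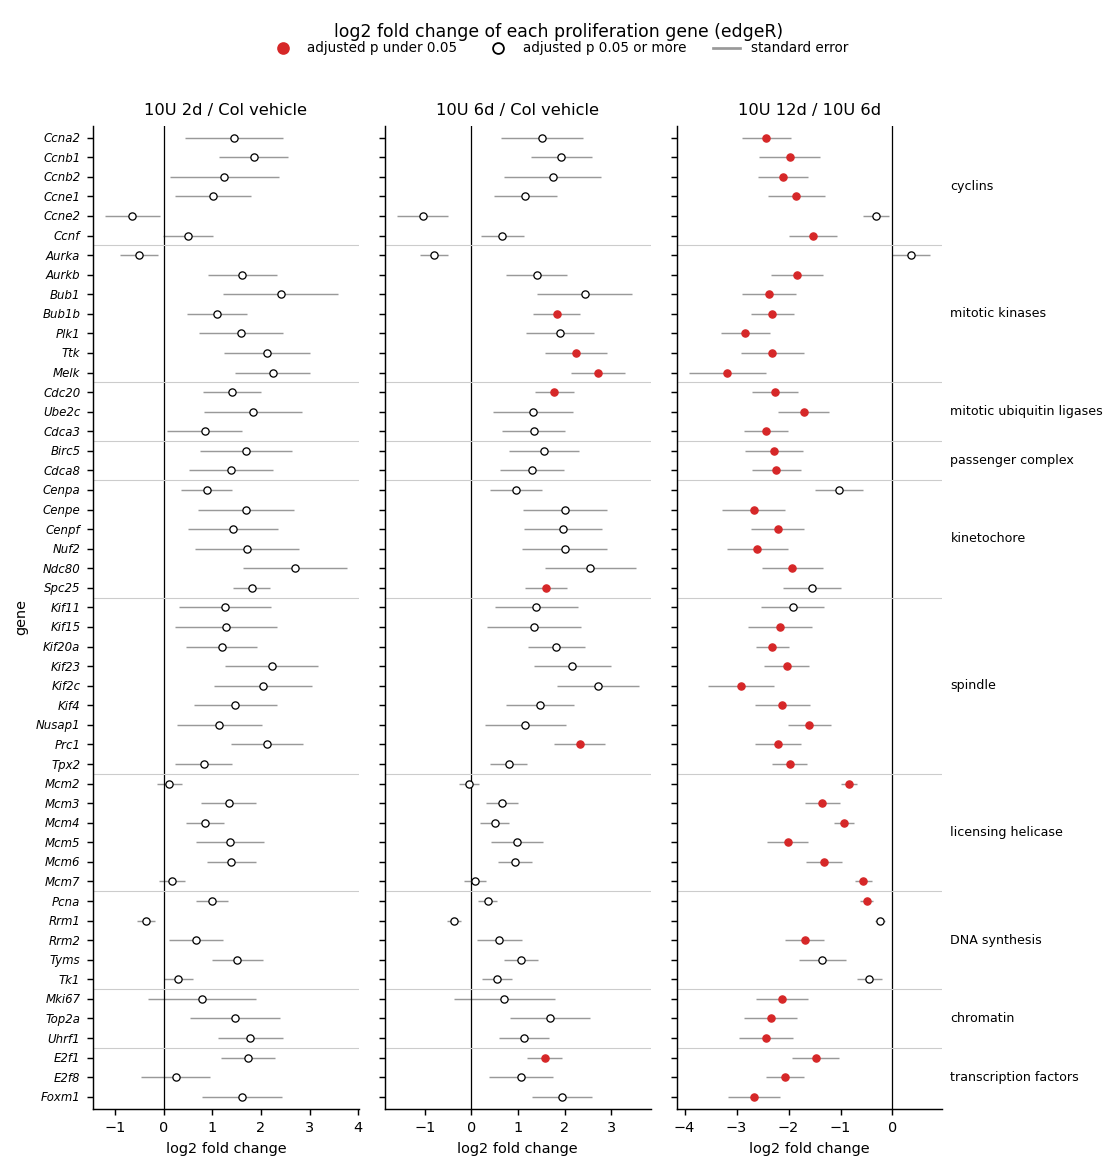
Log2 fold changes with their SE for the 50 members, ordered by role, at 2d and 6d post-Col (10U) against vehicle (n = 4 and 3 against 3) and at 12d against 6d (n = 4 against 3); red marks Padj under 0.05. The 2d panel has no red point, the 6d panel has 7 to the right of 0 and the 12d panel has 42 to the left.

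Cyclins activate the cyclin-dependent kinases, cyclin E at entry into S phase, cyclin A during it and cyclin B at mitosis. Ccnb1 was at 0.546, 0.196 and 1.36 CPM in the Col vehicle mice, 2.21, 3.49, 3.64 and 1.05 at 2d, 3.17, 3.62 and 1.54 at 6d and 0.337, 0.423, 0.388 and 1.56 at 12d. Ccne1 was at 1.55, 0.457 and 4.17 CPM in the Col vehicle mice, 4.2, 4.91, 6.57 and 1.2 at 2d, 5.18, 5.93 and 3.09 at 6d and 0.579, 1.03, 0.664 and 2.85 at 12d. The 6d mice lay above all vehicle mice for Ccnb1 and overlapped them for Ccne1, and at 12d mouse 4 was the high one for both. For Ccnb1 the log2 fold change was 1.85 (SE 0.71, Padj = 0.117) at 2d and 1.93 (SE 0.66, Padj = 0.0616) at 6d against vehicle, neither called, and it fell by 12d, with -1.98 (SE 0.58, Padj = 0.0422) against 6d. Ccne1 gave 1.16 (SE 0.68, Padj = 0.226) at 6d and also fell from 6d to 12d, -1.85 (SE 0.55, Padj = 0.0442). No cyclin was called against vehicle at 6d, where their median was 1.34, and 5 of 6 fell from 6d to 12d. The exception was Ccne2, the second E-type cyclin, which ran against the set. Ccne2 was at 4.14, 2.61 and 11.6 CPM in the Col vehicle mice, 3.41, 4.69, 5.46 and 2.1 at 2d, 3.47, 2.95 and 2.59 at 6d and 2.8, 2.42, 1.66 and 2.67 at 12d. Its log2 fold changes were -0.65 (SE 0.56, Padj = 0.431) at 2d, -1.05 (SE 0.55, Padj = 0.178) at 6d and -1.33 (SE 0.52, Padj = 0.245) at 12d against vehicle, none called, and 17.4% of its exon bases overlap Ints8 on the opposite strand.

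The mitotic kinases PLK1, BUB1 and BUB1B (BUBR1), TTK (MPS1) and the Aurora kinases drive entry into mitosis, spindle assembly and the spindle checkpoint. Plk1 was at 1.73, 0.392 and 4.8 CPM in the Col vehicle mice, 7.62, 8.89, 10.3 and 1.5 at 2d, 9.42, 11.9 and 5.51 at 6d and 0.964, 0.543, 0.996 and 2.36 at 12d. Bub1 was at 0.546, 0 and 2.9 CPM in the Col vehicle mice, 6.46, 7.37, 10.2 and 1.12 at 2d, 7.23, 8.13 and 4.05 at 6d and 0.723, 0.785, 0.72 and 2.63 at 12d. Every 6d mouse was above every vehicle mouse and every 12d mouse for both, while 2d mouse 4 was within the vehicle range. Plk1 had a log2 fold change of 1.59 (SE 0.86, Padj = 0.227) at 2d and 1.91 (SE 0.73, Padj = 0.086) at 6d, neither called, and fell from 6d to 12d (log2 fold change -2.83, SE 0.48, Padj = 0.0123), 1 of the 3 largest falls of the set. Bub1 gave 2.40 (SE 1.18, Padj = 0.19) at 2d and 2.43 (SE 1.02, Padj = 0.108) at 6d, and fell (log2 fold change -2.37, SE 0.52, Padj = 0.0198) from 6d to 12d. The 3 kinases called at 6d were Melk, Bub1b and Ttk. Melk was at 0.819, 0.261 and 1.54 CPM in the Col vehicle mice, 4.52, 5.4, 6.04 and 0.938 at 2d, 6.16, 7.55 and 4.18 at 6d and 0.145, 0.181, 0.388 and 1.78 at 12d. Bub1b was at 2.6, 1.76 and 6.7 CPM in the Col vehicle mice, 6.41, 10.3, 12 and 2.93 at 2d, 15.8, 15 and 9.4 at 6d and 2.07, 1.81, 1.66 and 5.03 at 12d. Ttk was at 0.546, 0.131 and 1.31 CPM in the Col vehicle mice, 3.1, 3.82, 4.44 and 0.525 at 2d, 3.64, 3.96 and 2.21 at 6d and 0.386, 0.181, 0.443 and 1.51 at 12d. Melk, a kinase of the AMPK family that is abundant in dividing progenitors, rose (log2 fold change 2.72, SE 0.58, Padj = 0.0165) at 6d, the largest increase of the set, and had the largest fall from 6d to 12d (log2 fold change -3.18, SE 0.74, Padj = 0.0234). At 6d Bub1b rose (log2 fold change 1.83, SE 0.50, Padj = 0.0339), as did Ttk (log2 fold change 2.24, SE 0.67, Padj = 0.0431). Aurka, which encodes the centrosomal Aurora kinase, went against the other 6 kinases. Aurka was at 11.3, 10.2 and 17.6 CPM in the Col vehicle mice, 6.09, 10.4, 14.3 and 5.29 at 2d, 7.92, 8.94 and 5.6 at 6d and 12.8, 8.45, 12.2 and 4.36 at 12d. At 6d its log2 fold change was -0.81 (SE 0.30, Padj = 0.0766), all 3 mice being below the 3 vehicle mice, and 12d against 6d gave 0.36 (SE 0.37, Padj = 0.472), the only positive value of the set. DESeq2 called Aurka lower at 6d, edgeR did not.

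CDC20 activates the anaphase-promoting complex and UBE2C is its ubiquitin-conjugating enzyme, and together they end mitosis by marking cyclin B and securin for destruction. Cdc20 was at 2.41, 1.18 and 3.35 CPM in the Col vehicle mice, 5.88, 5.89, 10.7 and 2.03 at 2d, 8.82, 9.86 and 5.6 at 6d and 0.723, 1.69, 1.16 and 3.03 at 12d. The 6d mice were all above vehicle, and the 12d mice all below 6d. Cdc20 rose (log2 fold change 1.78, SE 0.42, Padj = 0.0229) at 6d, a call that was lost in 1 fit of all libraries and with both vehicle groups pooled, and fell (log2 fold change -2.26, SE 0.45, Padj = 0.0169) from 6d to 12d, and all 3 members of the role fell in that comparison. BIRC5 (survivin) is the subunit that brings the chromosomal passenger complex of Aurora B to centromeres. Birc5 was at 3.14, 0.522 and 8.42 CPM in the Col vehicle mice, 11.9, 18.6, 20.2 and 2.03 at 2d, 12.5, 15.8 and 8.35 at 6d and 1.69, 1.03, 1.55 and 5.57 at 12d. Its 6d range met the vehicle range at vehicle mouse 3, and the log2 fold change at 6d was 1.56 (SE 0.76, Padj = 0.154), while it fell (log2 fold change -2.28, SE 0.55, Padj = 0.0255) from 6d to 12d.

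The NDC80 complex, which includes NDC80, NUF2 and SPC25, attaches microtubules to the kinetochore. Ndc80 was at 0.41, 0 and 1.63 CPM in the Col vehicle mice, 4.67, 5.51, 6.92 and 1.16 at 2d, 5.48, 5.22 and 1.92 at 6d and 0.771, 0.543, 0.609 and 2.36 at 12d. 1 of the 3 vehicle mice had no read of Ndc80, and the 6d mice were all above vehicle but overlapped 12d at mouse 4. Ndc80 had the largest log2 fold change at 2d, 2.69 (SE 1.07, Padj = 0.127), and the third largest at 6d, 2.55 (SE 0.98, Padj = 0.0858), neither called, and fell (log2 fold change -1.93, SE 0.59, Padj = 0.0466) from 6d to 12d. Spc25 was at 0.91, 2.02 and 2.08 CPM in the Col vehicle mice, 5.04, 6.38, 6.79 and 5.03 at 2d, 5.61, 6.67 and 3.13 at 6d and 0.771, 1.57, 0.83 and 3.7 at 12d. All 4 mice at 2d were above vehicle for Spc25, with 1.81 (SE 0.38, Padj = 0.0519), and it rose (log2 fold change 1.61, SE 0.45, Padj = 0.035) at 6d, a call lost in the same fits as that of Cdc20. Its value at 12d against 6d was -1.55 (SE 0.56, Padj = 0.0723), not called.

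KIF11 (Eg5) pushes spindle poles apart, KIF2C (MCAK) removes tubulin at kinetochores, and PRC1 bundles microtubules of the midzone where KIF20A, KIF23 and KIF4 act. Kif11 was at 2.82, 0.457 and 13.1 CPM in the Col vehicle mice, 11.3, 16.7, 20.5 and 4.61 at 2d, 17.2, 17.2 and 9.81 at 6d and 1.69, 1.75, 2.49 and 9.31 at 12d. The highest vehicle mouse lay within the 6d range, and all 12d mice were below 6d. Kif11 was called in neither comparison, with 1.39 (SE 0.89, Padj = 0.264) at 6d and -1.92 (SE 0.61, Padj = 0.0512) from 6d to 12d. Prc1 was at 3.82, 1.44 and 7.97 CPM in the Col vehicle mice, 17.4, 25.1, 30.3 and 4.46 at 2d, 27.4, 24.5 and 16.2 at 6d and 3.81, 1.93, 4.71 and 8.77 at 12d. Prc1 rose (log2 fold change 2.33, SE 0.55, Padj = 0.022) at 6d, where its lowest mouse was above all vehicle mice, and fell (log2 fold change -2.21, SE 0.44, Padj = 0.017) by 12d. Kif2c had the second largest log2 fold change at 6d, 2.71 (SE 0.88, Padj = 0.054), not called, and fell (log2 fold change -2.92, SE 0.63, Padj = 0.0198) to 12d. The smallest Padj of the set at 12d against 6d was that of Kif20a, -2.31 (SE 0.32, Padj = 0.00894), and 8 of the 9 spindle members fell there.

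The 6 MCM genes encode the helicase that is loaded on origins before S phase. Mcm5 was at 4.83, 3.0 and 14.8 CPM in the Col vehicle mice, 18.7, 23.7, 30.5 and 5.55 at 2d, 17.7, 17.1 and 10.4 at 6d and 2.84, 1.81, 3.54 and 6.41 at 12d. Vehicle mouse 3 was above the lowest 6d mouse, and 12d was below 6d in every mouse. Mcm5 gave 1.36 (SE 0.69, Padj = 0.2) at 2d and 0.97 (SE 0.56, Padj = 0.222) at 6d, neither called, and fell (log2 fold change -2.02, SE 0.40, Padj = 0.0168) to 12d. Mcm6 was at 11.8, 8.48 and 20.7 CPM in the Col vehicle mice, 36.9, 39.7, 54.3 and 12.7 at 2d, 27.4, 32.6 and 19.2 at 6d and 7.04, 6.82, 10.2 and 17.5 at 12d. Mcm6 gave 1.39 (SE 0.50, Padj = 0.103) at 2d, with 3 of 4 mice above all vehicle mice. All 6 MCM genes fell from 6d to 12d, from -0.56 for Mcm7 to -2.02 for Mcm5 in log2 fold change, with a median of -1.13 that was smaller in size than the -2.31 of the kinases. The call of Mcm7 was lost without the filter on low counts and with the replicate block.

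PCNA is the clamp that holds DNA polymerases on the template, and RRM1 and RRM2 are the large and small subunits of ribonucleotide reductase, which supplies deoxynucleotides. Pcna was at 10.7, 12.5 and 14.5 CPM in the Col vehicle mice, 28.1, 25.6, 33.1 and 12 at 2d, 15.4, 18.3 and 14.4 at 6d and 11.3, 11.2, 10.7 and 11.7 at 12d. Rrm2 was at 8.51, 4.76 and 19.2 CPM in the Col vehicle mice, 15.7, 20.2, 25.7 and 7.09 at 2d, 17.2, 20.6 and 12.1 at 6d and 3.37, 3.92, 3.82 and 9.17 at 12d. Pcna was above all vehicle mice in 3 of 4 mice at 2d and in 2 of 3 at 6d. Its log2 fold change was 0.99 (SE 0.33, Padj = 0.0918) at 2d and 0.35 (SE 0.20, Padj = 0.225) at 6d, and it fell (log2 fold change -0.50, SE 0.12, Padj = 0.028) from 6d to 12d. Rrm2 gave 0.60 (SE 0.48, Padj = 0.367) at 6d and fell (log2 fold change -1.69, SE 0.37, Padj = 0.0206) to 12d. Rrm1 was at 69, 58.3 and 74 CPM in the Col vehicle mice, 45.7, 57.4, 62.1 and 40.7 at 2d, 53.5, 52.7 and 50.1 at 6d and 48.1, 43.1, 43.3 and 39.4 at 12d. Rrm1 was by RPKM the most abundant member at 6d (mean 13.0 RPKM), and its log2 fold changes against vehicle were -0.37 (SE 0.19, Padj = 0.216) at 2d, -0.37 (SE 0.15, Padj = 0.108) at 6d and -0.58 (SE 0.14, Padj = 0.103) at 12d. Of the 5 genes of this role, Pcna and Rrm2 were called lower at 12d than at 6d and Rrm1, Tyms and Tk1 were not, though every mouse at 12d was below every mouse at 6d for 4 of the 5, Tk1 being the other. The call of Pcna was lost with the marrow score as covariate.

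MKI67 (Ki-67) coats mitotic chromosomes and is the common histological mark of dividing cells, TOP2A untangles sister DNA, and UHRF1 keeps DNA methylation through replication. Mki67 was at 12.5, 2.35 and 118 CPM in the Col vehicle mice, 68.2, 84.4, 134 and 21.9 at 2d, 89.8, 85.9 and 47.3 at 6d and 10.7, 9.66, 10.9 and 36.1 at 12d. Top2a was at 6.83, 1.7 and 32.1 CPM in the Col vehicle mice, 33.7, 47.8, 60.3 and 9.71 at 2d, 51.4, 54.4 and 29 at 6d and 5.16, 4.95, 5.7 and 19.1 at 12d. Mki67 spanned from 2.35 to 118 CPM within the vehicle group, and the 6d mice lay inside that range. Top2a at 6d overlapped vehicle at vehicle mouse 3. Mki67 gave 0.78 (SE 1.11, Padj = 0.644) at 2d and 0.71 (SE 1.09, Padj = 0.64) at 6d, and fell (log2 fold change -2.12, SE 0.50, Padj = 0.0245) to 12d. Top2a gave 1.69 (SE 0.86, Padj = 0.168) at 6d and fell (log2 fold change -2.34, SE 0.51, Padj = 0.0202), and Uhrf1 fell too, so that all 3 of this role did.

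E2F1 starts the S phase program, FOXM1 drives genes of G2 and mitosis, and E2F8 represses E2F targets later in the cycle. E2f1 was at 2.46, 2.41 and 4.21 CPM in the Col vehicle mice, 6.83, 14, 16.1 and 3.38 at 2d, 10.2, 11.2 and 5.76 at 6d and 1.93, 1.93, 2.6 and 6.32 at 12d. Foxm1 was at 2.32, 1.04 and 7.34 CPM in the Col vehicle mice, 8.77, 13.1, 20.1 and 2.33 at 2d, 17.3, 16.4 and 8.81 at 6d and 1.3, 0.906, 2.27 and 4.23 at 12d. For both, each 6d mouse was above each vehicle mouse. E2f1 gave 1.73 (SE 0.56, Padj = 0.0856) at 2d, rose (log2 fold change 1.57, SE 0.37, Padj = 0.0223) at 6d and fell (log2 fold change -1.48, SE 0.46, Padj = 0.0492) to 12d, a call that was lost with the size factors of DESeq2 in edgeR and without the filter on low counts. Foxm1 gave 1.95 (SE 0.65, Padj = 0.0587) at 6d, not called, and fell (log2 fold change -2.67, SE 0.50, Padj = 0.0154) to 12d.

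**Figure D4:**
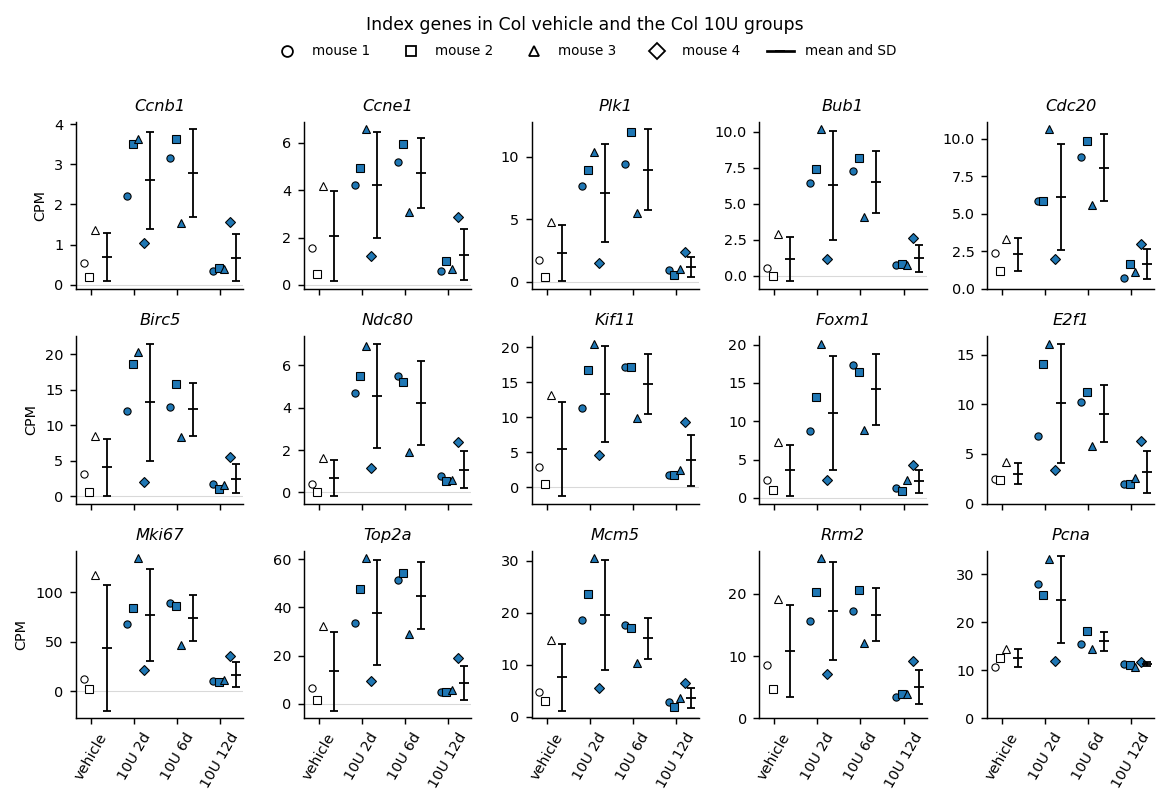
CPM per mouse of 15 members, at least 1 of each role, in Col vehicle mice and in mice 2d, 6d and 12d after 10U Col, with group means and SD. Vehicle mouse 3 and 12d mouse 4 lie above the rest of their groups for most genes and 2d mouse 4 below, and Mki67 spans 2.35 to 118 CPM among the vehicle mice.

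Between 2d and 6d post-Col (10U) no member was called (4.68% of all genes upward, 4.05% downward), none was at an unadjusted p under 0.05 (12.4% of all genes upward, 14.2% downward) and DESeq2 called none, with a median of 0.03. The largest log2 fold changes were those of E2f8 0.83 (SE 0.37, Padj = 0.199), Bub1b 0.75 (SE 0.44, Padj = 0.323) and Kif2c 0.68 (SE 0.54, Padj = 0.474), and the smallest those of Mcm3 -0.66 (SE 0.48, Padj = 0.435), Uhrf1 -0.65 (SE 0.48, Padj = 0.438) and Pcna -0.64 (SE 0.31, Padj = 0.236). All 6 MCM genes were below 0, with a median of -0.36, while the medians of kinases (0.14) and kinetochore genes (0.19) were above it. The mean log2 CPM of the 11 S phase members minus that of the 27 members of the mitotic roles, cyclins left out, was 1.37, 1.19, 1.09 and 2.02 in the mice at 2d and 0.82, 0.76 and 1.13 at 6d, a difference to which gene length adds the same constant in every mouse. It was 2.41, 3.70 and 1.55 in Col vehicle and 2.31, 2.5, 2.12 and 1.41 at 12d. Hence 6d mice had the least S phase over mitotic transcript of the 4 groups, except that 6d mouse 3 (1.13) was above 2d mouse 3 (1.09). Within each of the 4 groups this difference was smaller in mice with a higher mean of the mitotic members. In Col vehicle that mean was 1.01, -0.71 and 2.45. The difference thus moves with the level of the set and is not read as a shift of phase. Without 2d mouse 4, Mcm3, Mcm6, Pcna, Tyms and Uhrf1 were called lower at 6d than at 2d, against 14.8% of all genes in that fit. That mouse was the lowest of its group for 49 members, so its omission raises most 2d values by construction.

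Of 102 further cell cycle genes tested at 6d against vehicle, from lists that hold no member, 25 rose and 7 fell, against 14% and 13.3% of all genes. Among other mitosis genes 15 of 45 rose and 1 fell with a median of 1.55, and among other S phase genes 2 of 26 rose and 2 fell with a median of 0.47. From 6d to 12d, 34 of 45 mitosis genes and 11 of 26 S phase genes fell, against 13% of all genes. Cdk1, the kinase of cyclins A and B, was at 1.5 to 7.16 CPM in vehicle, 4.20 to 32.1 at 2d, 12.0 to 22.7 at 6d and 1.39 to 9.40 at 12d. It gave 2.18 (SE 0.73, Padj = 0.0897) at 2d, rose (log2 fold change 2.04, SE 0.52, Padj = 0.0274) at 6d and fell (log2 fold change -2.07, SE 0.57, Padj = 0.0354) to 12d. Rfc4, a subunit of the loader of PCNA, had the smallest called value at 6d, -1.27 (SE 0.31, Padj = 0.0252), and rose again (log2 fold change 0.73, SE 0.21, Padj = 0.0393) to 12d.

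Of 10 inhibitors of the cycle and pocket proteins, 5 rose and 1 fell at 6d against vehicle (14% and 13.3% of all genes), and 3 fell from 6d to 12d (13% of all genes). Cdkn1a encodes p21, which binds and blocks cyclin-dependent kinases in stressed and in differentiating cells. Cdkn1a was at 56.2 to 106 CPM in the Col vehicle mice, 129 to 476 at 2d, 391 to 1630 at 6d and 91.2 to 312 at 12d. All 6d mice were above all vehicle and 12d mice. Cdkn1a gave 1.91 (SE 0.44, Padj = 0.0548) at 2d, rose (log2 fold change 3.66, SE 0.54, Padj = 0.00564) at 6d and fell (log2 fold change -2.68, SE 0.58, Padj = 0.0199) to 12d. Cdkn2a, which encodes p16 and p19ARF, was at 0 to 0.091 CPM in vehicle and at 0.71 to 1.42 at 6d. That is at least 7.69-fold higher when vehicle is set to a floor of 3 reads per library. Cdkn2a had at most 2 reads in any vehicle mouse, so it passed the count filter only through the 6d mice. Its place among the 5 is therefore no independent support. Among the Col vehicle and 10U groups, Ccnd1 and Myc had their highest medians at 2d. Ccnd1, the cyclin of G1, was at 21.4 to 39.0 CPM in vehicle, 42.6 to 127 at 2d, 39.3 to 48.7 at 6d and 21.5 to 49.1 at 12d, with 1.82 (SE 0.40, Padj = 0.0533) at 2d. Myc was at 9.56 to 15.7 CPM in the Col vehicle mice, 13.7 to 144 at 2d, 16.9 to 24.5 at 6d and 5.93 to 8.64 at 12d. Myc, a growth factor-induced transcription factor, gave 3.08 (SE 0.72, Padj = 0.056) at 2d with the lowest mouse within the vehicle range, 0.76 (SE 0.26, Padj = 0.0598) at 6d, and fell (log2 fold change -1.49, SE 0.18, Padj = 0.00767) from 6d to 12d. No gene of these lists was called at 2d against vehicle.

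Cell type markers were read beside these results. At 6d against vehicle, 5 of 5 tested marrow granulocyte precursor markers fell (Elane, its defining marker, was at 0 or near it) and 3 of 6 bone markers fell, while 8 of 8 macrophage markers and 4 of 7 satellite cell and myoblast markers rose, against 13.3% of all genes called downward and 14% upward. Of 6 fibroblast markers 1 rose, Col3a1, a fibrillar collagen, at 372 to 2060 CPM in vehicle and 4660 to 7290 at 6d, and Col1a1 was at 142 to 2360 and 2830 to 5570, not called. The others did not share this size of change. Dcn was at 538 to 1410 CPM in vehicle and 475 to 621 at 6d, and Lum at 38.3 to 194 and 135 to 148. Pdgfra was at 31.8 to 92.1 and 69.3 to 81, and Dpt at 74.2 to 114 and 120 to 150. Of 5 tested neutrophil markers 2 fell, S100a8 and S100a9, the latter at 3.92 to 415 CPM in vehicle and 0.983 to 2.3 at 6d. Among the other lists 1 of 5 endothelial, 2 of 5 tested erythroid precursor, 3 of 7 muscle fibre, 3 of 4 tested keratinocyte and 2 of 2 tested salivary gland markers fell, and none of 3 tested T and NK cell markers nor the 1 tested B cell marker was called. The salivary gland marker Dcpp1 and the bone marker Bglap had at most 2 reads in any 6d mouse. Such markers could enter the test only through vehicle, so the counts of tested markers that fell are partly set by the filter. The summed marrow level was 8.81 to 934 CPM in vehicle and 1.69 to 3.68 at 6d. The summed macrophage level was 101 to 228 CPM in vehicle and 736 to 1419 at 6d, with Csf1r, the receptor that defines macrophages, at 21.0 to 57.9 and 102 to 178. The summed satellite cell and myoblast level was 115 to 151 CPM and 1266 to 1950, with Myog, a transcription factor of differentiating myoblasts, at 3.35 to 8.16 and 191 to 278, and Pax7, a factor of satellite cells, at 2.63 to 6.74 and 6.26 to 8.0. The part of these cells in the members' values was not tested. Among the 3 Col vehicle mice the member score and the marrow score had the same order, while at 6d marrow scores were the lowest of all Col groups beside member scores of 2.91 to 3.71.

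Col vehicle mouse 3 had the most marrow transcript of the vehicle mice and was the highest of them for 49 of 50 members. Its omission therefore raises most fold changes by construction, and the part of marrow in this was not tested. Leaving it out moved the median at 6d more than any other omission. In that fit 40 members were called upward (21% of all genes), all 7 among them, and the median was 2.49. Bub1 was then at a log2 fold change of 4.40 (Padj = 0.0138), Ndc80 at 4.18 (Padj = 0.0199), Mki67 at 3.30 (Padj = 0.0141) and Top2a at 3.36 (Padj = 0.00951). Ccne2, Aurka and Rrm1 stayed below 0 and uncalled, at -0.18, -0.53 and -0.30. With the marrow score as a covariate in a fit of all libraries, a setting chosen after the data were seen, 44 members were called upward (22.1% of all genes) with a median of 3.51. Marrow scores at 6d were the lowest of all Col groups, so the covariate and the 6d group go together in this fit. Its calls therefore cannot tell marrow content and group apart.

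**Figure D5:**
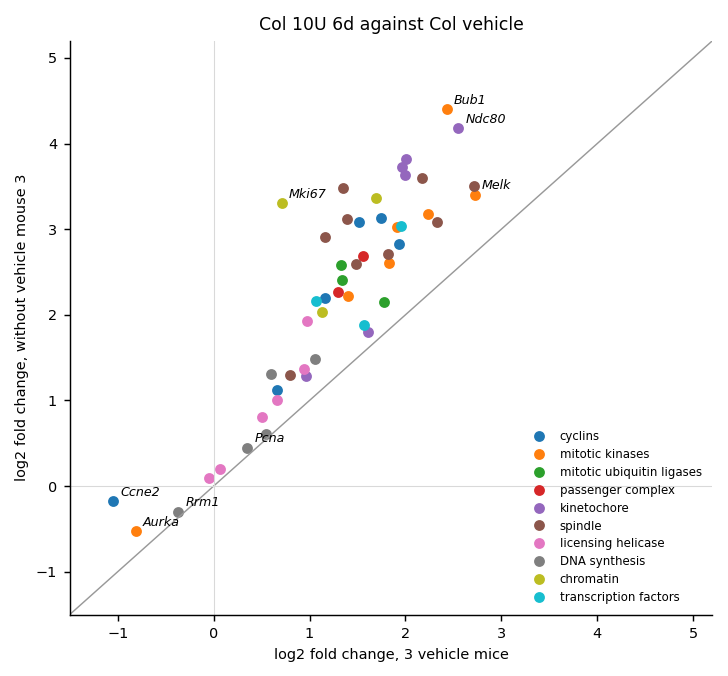
Log2 fold change of each member at 6d post-Col (10U) against vehicle with all 3 vehicle mice (horizontal) and without vehicle mouse 3 (vertical), with the diagonal. All points lie above the diagonal or near it, with a median of 1.37 on the horizontal axis and 2.49 on the vertical axis. Vehicle mouse 3 was the highest vehicle mouse for 49 of the 50 members, so a rise follows by construction.

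After CFA no member was called by edgeR or DESeq2 at 1d (46 tested, 0% of all genes called in either direction by edgeR) or at 5d (47 tested, 1.06% of all genes upward and 0.0428% downward). At an unadjusted p under 0.05 there was no member at 1d (3.06% of all genes upward, 1.15% downward) and 2 were lower at 5d (10.3% upward, 3.71% downward). All mice were below all vehicle mice for 1 member at 1d (3.46% of all genes) and 2 at 5d (5.58%). The median log2 fold change was -0.08 at 1d and -0.33 at 5d, against -0.01 and -0.02 for all genes. Mki67 was at 0.573, 1.22 and 64 CPM in CFA vehicle, 2.34, 12.9 and 48.6 at 1d and 6.51, 5.78 and 10.9 at 5d. Top2a was at 0.204, 0.703 and 26.6 CPM in CFA vehicle, 2.1, 4.02 and 16.9 at 1d and 4.19, 2.03 and 8.0 at 5d. For both genes CFA vehicle mouse 3 was above every mouse at 1d and 5d, and the other vehicle mice were below every one of them. Plk1 was at 0.204, 0.422 and 3.04 CPM in CFA vehicle, 0.484, 0.868 and 2.83 at 1d and 1.21, 0.573 and 1.59 at 5d. Bub1 was at 0.123, 0.0937 and 3.15 CPM in CFA vehicle, 0.323, 0.457 and 1.72 at 1d and 0.791, 0.208 and 1.06 at 5d. Cdc20 was at 0.491, 0.188 and 4.74 CPM in CFA vehicle, 0.686, 0.731 and 3.34 at 1d and 1.77, 1.15 and 3.18 at 5d. The same order held for these 3 mitotic genes. Birc5 was at 0.327, 0.375 and 6.56 CPM in CFA vehicle, 0.726, 2.1 and 6.78 at 1d and 1.58, 1.3 and 2.75 at 5d. Ndc80 was at 0.123, 0.375 and 2.11 CPM in CFA vehicle, 0.242, 0.365 and 1.07 at 1d and 0.372, 0.416 and 0.689 at 5d. Kif11 was at 0.164, 0.422 and 9.79 CPM in CFA vehicle, 0.766, 1.6 and 6.64 at 1d and 2.09, 1.35 and 2.17 at 5d. All mice at 5d lay between vehicle mice 2 and 3 for Birc5 and Kif11, and 5d mouse 1 was level with vehicle mouse 2 for Ndc80. Ccnb1 was at 0, 0.0937 and 2.11 CPM in CFA vehicle, 0.282, 0.365 and 1.72 at 1d and 0.744, 0.625 and 1.17 at 5d. Ccne1 was at 0.777, 0.656 and 3.3 CPM in CFA vehicle, 1.98, 0.731 and 3.25 at 1d and 0.558, 0.833 and 1.11 at 5d. Foxm1 was at 0.286, 0.797 and 5.86 CPM in CFA vehicle, 1.37, 1.51 and 3.62 at 1d and 2.14, 1.82 and 4.18 at 5d. Vehicle mouse 3 was again the highest of the 9 mice for these 3 genes. E2f1 was at 0.614, 1.55 and 4.08 CPM in CFA vehicle, 3.35, 1.87 and 3.3 at 1d and 3.02, 2.24 and 5.3 at 5d. Mcm5 was at 2.25, 2.9 and 13.6 CPM in CFA vehicle, 7.83, 3.74 and 12.1 at 1d and 3.86, 4.42 and 9.74 at 5d. Rrm2 was at 1.8, 1.5 and 17 CPM in CFA vehicle, 1.74, 5.57 and 11.8 at 1d and 6.47, 5.93 and 10.2 at 5d. Vehicle mouse 3 was the highest of the 9 for Mcm5 and Rrm2, and 5d mouse 3 was for E2f1. Pcna was at 12.3, 11.5 and 14.9 CPM in CFA vehicle, 18.2, 12.5 and 18.9 at 1d and 11.3, 12.5 and 13.1 at 5d. All 9 mice thus lay between 11.3 and 18.9 CPM.

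The largest log2 fold changes at 1d post-CFA were those of Mcm3 0.67 (SE 0.45, Padj = 0.924), Melk (0.62) and Tyms (0.54), and the smallest those of Bub1 -0.50 (SE 1.30, Padj = 0.98), Tk1 (-0.44) and Kif23 and Rrm1 (-0.39 each). At 5d post-CFA Melk 1.57 (SE 1.05, Padj = 0.59), Spc25 (0.96) and E2f1 (0.80) were the largest, and Mki67 -1.49 (SE 1.47, Padj = 0.727), Cenpf (-1.22) and Ccnb2 (-1.18) the smallest. The result at 5d turned on CFA vehicle mouse 3, the highest vehicle mouse for 47 of 50 members. Its summed marrow precursor level was 567 CPM against 3.68 to 6.78 at 5d. Salivary gland markers differed too, with Amy1 at 68.8 to 5990 CPM in CFA vehicle and 41900 to 64000 at 5d. Bhlha15 was at 0.123 to 94.8 and 171 to 267 CPM, while Smgc and Muc19 were at 0.104 CPM or less in both groups. The part of these tissues in the members' values was not tested. Without vehicle mouse 3, 21 members were called upward at 5d (11.8% of all genes) with a median of 1.80, and none at 1d with a median of 2.00. Since that mouse was the highest vehicle mouse for most members, a rise follows by construction. The 21 calls are therefore not read as an effect of CFA. No other cell cycle gene was called after CFA. Cdkn1a gave 1.47 (SE 0.56, Padj = 0.924) at 1d and -0.28 (SE 0.20, Padj = 0.613) at 5d, Myc 1.33 (SE 0.39, Padj = 0.924) and 0.59 (SE 0.18, Padj = 0.183), Ccnd1 0.23 (SE 0.59, Padj = 0.98) and 1.62 (SE 0.61, Padj = 0.283), and Cdk1 0.02 (SE 1.34, Padj = 0.999) and -0.11 (SE 1.26, Padj = 0.981).

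The difference between the effects of 10U Col at 6d and of CFA at 5d, each against its own vehicle, was tested as an interaction. It was positive for 46 of 50 members with a median of 1.73, and none was called (4.34% of all genes upward, 6.96% downward), with 1 member higher at an unadjusted p under 0.05 (12.3% of all genes) and none by DESeq2. Ndc80 3.37 (SE 1.56, Padj = 0.18), Cenpf (3.20) and Bub1 (3.14) were the largest and Aurka (-0.30), Ccne2 (-0.28) and Mcm2 (-0.12) the smallest. With mouse 3 of both vehicle groups left out, chosen after the data were seen, the median was 0.51 and no member was called. For Cdkn1a the difference was 3.93 (SE 0.60, Padj = 0.00477), which was called.

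At 0.2U Col no member and no gene at all was called in either group by edgeR (0% of all genes), and DESeq2 called 0 members in both. In the 1C group 43 of 50 members had a positive log2 fold change with a median of 0.53, and 1 was higher and 1 lower at an unadjusted p under 0.05 (6.82% and 5.73% of all genes). In that group no member lay above and 1 lay below vehicle in every mouse (4.31% and 5.96% of all genes). In the RPC group the split was 26 to 24 with a median of 0.02, and 1 was higher and 3 lower at an unadjusted p under 0.05 (6.33% and 7.15% of all genes), while 1 lay above and none below vehicle in every mouse (4.93% and 7.17%). Mki67 was at 47, 62.5, 70.1 and 53.9 CPM in the 1C mice and 46.3, 42.8, 14.8 and 52.6 in the RPC mice. Top2a was at 19.6, 26.9, 29.1 and 16.3 CPM in the 1C mice and 21.2, 12.4, 6.78 and 15.1 in the RPC mice. Plk1 was at 2.53, 4.59, 4.15 and 2.0 CPM in the 1C mice and 2.12, 2.16, 1.21 and 2.38 in the RPC mice. All 8 mice lay within the range of the 3 vehicle mice for these 3 genes, and RPC mouse 3 was the lowest of its group for 42 of the 50 members. Bub1 was at 1.7, 2.74, 3.11 and 1.72 CPM in the 1C mice and 3.18, 1.42, 0.606 and 2.38 in the RPC mice. Cdc20 was at 3.08, 5.53, 5.24 and 2.15 CPM in the 1C mice and 2.89, 1.71, 2.04 and 3.37 in the RPC mice. Birc5 was at 4.89, 8.57, 5.19 and 3.63 CPM in the 1C mice and 5.3, 2.98, 2.21 and 4.49 in the RPC mice. The member score had an SD of 0.335 in the 1C group and 1.35 in Col vehicle. Ndc80 was at 1.26, 1.79, 1.82 and 0.525 CPM in the 1C mice and 1.88, 0.67, 0.661 and 1.12 in the RPC mice. Kif11 was at 7.31, 9.67, 9.34 and 5.01 CPM in the 1C mice and 9.06, 6.85, 2.37 and 7.48 in the RPC mice. Ccnb1 was at 1.65, 1.89, 1.4 and 0.764 CPM in the 1C mice and 0.867, 1.19, 0.661 and 1.07 in the RPC mice. In 1C, 3 mice were above all vehicle mice for Ccnb1 and mice 2 and 3 for Ndc80 and Cdc20, but the groups overlapped. Ccne1 was at 2.69, 4.93, 2.59 and 2.2 CPM in the 1C mice and 0.771, 1.49, 0.661 and 2.1 in the RPC mice. Foxm1 was at 4.5, 4.98, 8.77 and 5.01 CPM in the 1C mice and 5.73, 3.2, 2.09 and 4.11 in the RPC mice. E2f1 was at 6.43, 4.63, 5.24 and 3.96 CPM in the 1C mice and 4.43, 3.5, 4.19 and 3.93 in the RPC mice. The 1C mice 1, 2 and 3 were above vehicle for E2f1, and mouse 3 was the high one for Foxm1. Mcm5 was at 9.23, 15.9, 15.4 and 9.55 CPM in the 1C mice and 9.3, 8.42, 3.25 and 9.91 in the RPC mice. Rrm2 was at 11, 18.8, 15.5 and 9.21 CPM in the 1C mice and 9.64, 13.6, 9.48 and 14.2 in the RPC mice. Pcna was at 12.6, 18.7, 14.2 and 10.9 CPM in the 1C mice and 10.2, 10.9, 11.5 and 13.7 in the RPC mice. Neither group separated from vehicle for any of the 15 genes, and RPC mouse 3 was the low one for Mcm5.

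The largest log2 fold changes in 1C were those of Ttk 1.30 (SE 0.66, Padj = 0.459), Kif2c (1.18) and Melk (1.12) and the smallest those of Aurka -0.71 (SE 0.25, Padj = 0.328), Tpx2 (-0.41) and Rrm1 (-0.36). In RPC, Spc25 1.03 (SE 0.39, Padj = 0.333), Uhrf1 (0.82) and Bub1 (0.71) were the largest and Tpx2 -0.88 (SE 0.39, Padj = 0.377), Aurka (-0.85) and Ccne2 (-0.85) the smallest. Cdkn1a was at 0.03 (SE 0.34, Padj = 0.98) in 1C and -0.44 (SE 0.22, Padj = 0.411) in RPC, Ccnd1 at 0.77 (SE 0.30, Padj = 0.372) and 1.10 (SE 0.25, Padj = 0.265), Cdk1 at 0.69 (SE 0.52, Padj = 0.592) and 0.30 (SE 0.55, Padj = 0.83), and Myc at 0.62 (SE 0.31, Padj = 0.45) and 0.53 (SE 0.35, Padj = 0.521). Summed marrow precursor levels were 248 to 700 CPM in 1C and 179 to 511 in RPC, within the vehicle range of 8.81 to 934. The sum of 511 was that of RPC mouse 3 and was nearly all Ltf (509 CPM), while Elane was at 0.165 and Mpo at 0.11 CPM in that mouse, the lowest of its group. The marrow score of RPC mouse 3 was -0.23 against 3.74 to 4.15 in the other RPC mice, and its part in the members' levels was not tested. Amy1, a salivary gland marker, was at 76.8 to 10700 CPM in 1C, 9440 to 117000 in RPC and 64.8 to 38000 in vehicle. Krt14, a keratinocyte marker, was at 22 to 163 CPM in 1C, 9.2 to 31.2 in RPC and 4.39 to 25.7 in vehicle. The part of these tissues was not tested either. Leaving out vehicle mouse 3 moved the 1C median to 1.63 and the RPC median to 1.07, with 0 members called.

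The remaining extremes were at 2d and 12d against vehicle and between the vehicles. At 2d Bub1 and Melk followed Ndc80 at the top, Melk with 2.24 (SE 0.77, Padj = 0.0944), and Aurka -0.52 (SE 0.39, Padj = 0.368) stood with Ccne2 and Rrm1 at the bottom. At 12d against vehicle Mki67 -1.37 (SE 1.08, Padj = 0.544), Ccne2 and Uhrf1 (-1.27) were the smallest and Ndc80 0.67 (SE 1.04, Padj = 0.777), Kif23 (0.17) and Prc1 (0.16) the largest, and Mcm2 had the smallest Padj, -0.86 (SE 0.18, Padj = 0.0741). Between CFA vehicle and Col vehicle 44 of 49 members tested were lower in CFA vehicle, with a median of -0.55. None was called (0% of all genes upward, 0.0426% downward), none was at an unadjusted p under 0.05 (1.03% and 1.29% of all genes) and DESeq2 called none. Aurka (0.36), Ccnb1 (0.07) and Tk1 (0.06) were the largest and Mki67 -1.01 (SE 1.80, Padj = 1), Nuf2 (-0.99) and Cenpe (-0.97) the smallest. Each group held 1 mouse with a high marrow level, its mouse 3.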

How the data were processed

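Total RNA of 31 injected MM was made into stranded poly(A) libraries (TruSeq) and sequenced as single 50-base reads. Per the submitters' processing notes, the authors used bcl2fastq, for which the study's methods name CASAVA, then TopHat2 (default settings per the methods) on mouse build mm9, and HTSeq to count reads per gene. The deposited values are raw counts per gene symbol, not normalized. Versions of these tools, the gene annotation and the strand setting of the counter are not given in the sources used here. Gene positions and exon lengths for RPKM were read from GENCODE vM1 (build mm9, all 50 members matched).

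Counts were tested with edgeR 4.0.16 (R 4.3.3), using TMM factors, the quasi-likelihood test and Benjamini-Hochberg adjustment over all genes that reached 10 counts in 3 or more libraries of the groups compared. A gene was called at Padj under 0.05, and the study's criteria (fold change over 2 and RPKM over 1 in a group) were applied as a second rule. The SE is the log2 fold change divided by the root of the F statistic. Scores are mean log2 CPM with a prior count of 2. DESeq2 1.42.0, its size factors, no filter, 1 fit of all libraries, pooled vehicles, a replicate block and leaving out each mouse were alternatives, and a marrow score covariate and the omission of mouse 3 of both vehicles were added after the data were seen. The scripts were tested on simulated data.

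Members and lists were chosen with earlier results of these data known, and no p was computed over a list. Named were 15 members (1 or 2 per role), the 3 largest and 3 smallest values of each comparison, the called members against the median, the largest and smallest called gene of the further lists at 6d, and Cdkn1a, Ccnd1, Cdk1 and Myc. Ttk, Bub1b, Spc25, Prc1, Mcm6, Mcm7, Kif20a and Mcm2 were also named outside this rule, after their values were seen. Nothing in the labels says that same-numbered mice share a source. Correlations of their deviations were above 0.1 for every pair only for 1d against vehicle of CFA (0.163, 0.257 and 0.591) and for the vehicles (0.206, 0.114 and 0.678), where no member was called with or without the block. P-values measure the spread between the mice sampled. No 2 libraries were identical.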

Additional observations from a re-analysis of the deposited data

Results flagged for a closer look

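Among 64 sets of 4 mice (16 measures, the 15 members with a value in every mouse and the member score), 9 held a mouse far from the other 3 by Dixon's test. Chance gives about 1 in 20 for a single set. The 16 measures move together in the same mice, so the 9 are not independent and are not compared with that rate. At 12d post-Col (10U), mouse 4 stood above the others in log2 CPM for Ccnb1 (0.73, others -1.21 to -0.95), Bub1 (1.44, others -0.30 to -0.18), Rrm2 (3.21, others 1.79 to 2.01), Mki67 (5.18, others 3.29 to 3.46) and Top2a (4.26, others 2.34 to 2.54). The same mouse had the highest macrophage score of its group (5.81, others 3.07 to 3.89) and satellite cell and myoblast score (5.10, others 3.11 to 3.61), and their part was not tested. At 2d post-Col (10U), mouse 4 was low for Plk1 (0.67, others 2.95 to 3.38). In the 0.2U groups, RPC mouse 3 was low for Mcm5 (1.74, others 3.09 to 3.32) and Mki67 (3.89, others 5.42 to 5.72), with the lowest marrow granulocyte score of its group (-0.23, others 3.74 to 4.15), and 1C mouse 3 was high for Foxm1 (3.15, others 2.20 to 2.35). Outside the gene counts, the lowest share of ambiguous reads in a 10U Col library was 0.675%, above the 0.147% to 0.317% of all other libraries.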

How the results depend on the processing

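The members' median kept its sign under every alternative run for 10U Col at 2d (0.93 to 2.38), 6d (0.87 to 3.51), 12d against 6d (-3.29 to -1.81) and for the 1C group (0.05 to 1.63), and it changed sign in both CFA comparisons (-0.83 to 2.00 at 1d, -0.67 to 1.80 at 5d), 12d against vehicle (-0.99 to 0.41), 6d against 2d (-0.26 to 1.73), the RPC group (-0.34 to 1.07), the vehicles (-2.78 to 0.36) and the interaction (-0.27 to 2.73). Calls were less stable, and the cause was not tested unless fewer mice or genes were fitted by construction. With DESeq2, 11 members were called higher at 2d (11.7% of all genes), 17 higher (17.1%) and 1 lower (Aurka; 18.5%) at 6d and 2 lower at 12d against vehicle (2.7%). One fit of all libraries gave 10 higher at 2d (18.6% of all genes), 2 lower at 12d (1.81%) and 25 lower from 6d to 12d (12.1%). Pooling the vehicles gave 10 higher at 2d (18% of all genes), 2 lower at 6d (Aurka and Rrm1; 20.1%) and 1 lower at 12d (Rrm1; 1.07%). In both of these fits Cdc20 and Spc25 were not called at 6d, while 9 and 10 members were (17.1% and 20.6% of all genes). With the replicate block, where mouse 4 has no partner, calls were 21 higher at 2d (16.1% of all genes), 0 at 6d (5.88%), 2 lower from 2d to 6d (Mcm3 and Pcna; 8.03%), and among the further cell cycle genes 6 higher and 1 lower at 6d; other counts stayed within 1.5 times. The numbers name different mice, so a call lost under the block is not read as a weaker effect. With the marrow score as covariate, calls were 40 higher at 2d (22% of all genes), 44 at 6d (22.1%), 30 from 2d to 6d (10.6%), 27 in the interaction (9.32%) and 2 lower at 12d (4.85%), with 70 further genes higher at 6d, and Birc5 (1.94), Rrm2 (1.37) and Mki67 (2.77) turned upward from 2d to 6d. Since marrow scores were lowest at 6d among the Col groups, the 6d values of this fit cannot tell marrow content and group apart. The fold and RPKM criteria left 3 further genes lower at 6d, and 1 higher and 35 lower from 6d to 12d.

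Leaving out 1 mouse gave 0 to 21 members higher at 5d post-CFA (21 without CFA vehicle mouse 3), 0 to 13 higher at 2d, 0 to 40 at 6d, 0 to 5 lower from 2d to 6d, 0 to 46 lower from 6d to 12d and 0 to 1 higher in the interaction (E2f8). From 6d to 12d the calls were 11, 13, 7 and 46 without 12d mice 1 to 4 and 10, 0 and 32 without 6d mice 1 to 3, and all but 4 of the calls in these fits were among the 42. For the further genes the ranges were 4 to 66 higher and 1 to 7 lower at 6d, and 0 to 9 higher and 1 to 77 lower from 6d to 12d. Without CFA vehicle mouse 3 the values at 5d post-CFA turned upward and were called for Birc5 (-0.88 to 2.51), Kif11 (-1.44 to 2.79), Mki67 (-2.07 to 3.22), Top2a (-1.55 to 3.50) and Cdk1 (-0.68 to 3.51), given as the lowest to the highest over all omissions. That mouse was the highest vehicle mouse for 47 of 50 members, so a rise of the members follows by construction. Low read counts limit the members least expressed, since 8 of 150 values in Col vehicle and 19 of 150 in CFA vehicle were at 3 reads or fewer. Values at 0 reads were those of 4 members in Col vehicle mouse 2 and 2 in CFA vehicle mouse 1, with 21468662 and 29076671 reads on genes, which are not the fewest. The TMM factors of these libraries were 0.7139 and 0.841, so their scaled depths were lower than these reads, and the part of depth was not tested.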
